A study of Mus musculus with 14 samples.

Results

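The UPF and SMG genes encode the core machinery of nonsense-mediated mRNA decay (NMD), and their RNA was followed in mouse hepatocytes that had lost the splicing factor SRSF1. The members were chosen by symbol as 9 genes, Upf1, Upf2, Upf3a, Upf3b, Smg1, Smg5, Smg6, Smg8 and Smg9, of 54446 in the deposited transcript table. They hold 45 of its 137767 transcripts. A gene's level is the sum over its transcripts in TPM, the length-corrected share of a library that kallisto assigns to a transcript. All 9 passed the low-level filter, an average of 1 TPM or more over the libraries fitted, in each comparison.

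NMD is a translation-dependent pathway that degrades mRNAs whose reading frame ends too early, typically when a stop codon lies upstream of an exon junction complex left by splicing. The helicase UPF1 is phosphorylated by the kinase SMG1, after which the endonuclease SMG6 and the adaptor SMG5 bring about cleavage and decay, while UPF2 and the UPF3 paralogs link UPF1 to the exon junction complex. Mammalian transcripts of several of these factors are themselves described as targets of NMD, and SRSF1 is described in human cells as an enhancer of the pathway.

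The 14 libraries of purified C57BL/6 hepatocytes form 6 groups. In the acute model, Srsf1 f/f mice received AAV8 at 8 weeks of age and were sampled at 10 weeks. The vector expressed iCre in the knockouts (acHKO, 3 libraries) and GFP in their controls (3 libraries), each from the TBG promoter, which is active in hepatocytes. In the HKO model, Srsf1 f/f;albCre+/- mice at 1 month or at postnatal day 10 (P10) were set against albCre+/- mice of the same age, with 2 libraries in each of these 4 groups. All acute mice carried the floxed allele and all HKO-model mice carried albumin-Cre, so iCre itself and the floxed line are not separated from loss of Srsf1. The labels leave unsaid whether replicates are different animals, and p-values measure the spread between these libraries, which may be technical outside the P10 HKO group. By sex-linked RNA the 2 libraries of that group come from different animals. Replicate 1 had 0.0102 TPM of Xist and 55.8 TPM of summed Y-linked genes, and replicate 2 had 74.7 and 0.144 TPM. Every other group had at most 0.0147 TPM of Xist and at least 24.9 TPM of the Y-linked genes in each library. Sex is thus mixed in the P10 HKO group alone, and its part in the P10 results was not tested.

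Srsf1 had 3.69, 5.34 and 4.16 TPM in acHKO libraries and 16.5, 29.7 and 32.3 TPM in GFP libraries. At 1 month it had 7.74 and 9.17 TPM in HKO libraries and 23.2 and 20.0 TPM in controls, and at P10 it had 30 and 23.4 TPM in HKO libraries and 43.6 and 46.4 TPM in controls. The groups did not overlap in any of the 3 comparisons. Summed hepatocyte markers stayed between 31600 and 114000 TPM over all libraries, and 10 of 10 were above 0 in every group. The 10 macrophage and Kupffer cell markers summed to between 417 and 587 TPM in HKO libraries and between 325 and 332 TPM in controls at P10, and to between 48.2 and 133 TPM in HKO libraries and between 14.6 and 17.5 TPM in controls at 1 month. In the acute model they summed to between 7.25 and 45.7 TPM in acHKO libraries and between 4.97 and 12.8 TPM in GFP libraries, and 0 of them were at 0 in every library of any group. Their part in the results was not tested.

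Mitochondrially encoded transcripts took 33.5 to 42.9% of TPM in acHKO libraries and 11.8 to 16.1% in GFP libraries. They took 35.8 to 50.6% in HKO libraries and 26.0 to 31.2% in controls at 1 month, and 27.5 to 33.9% in HKO libraries and 28.3 to 31.7% in controls at P10. TPM are shares of a total, so all other genes move when such a class grows. The median gene changed by a log2 value of -0.36 for acHKO against GFP, -0.001 for HKO against control at 1 month and 0.25 at P10. In bulk RNA, fewer cells of a type and less RNA per cell cannot be told apart. Fold changes of log2(TPM + 1) are therefore given relative to that median gene, while adjusted p-values belong to the test of the deposited TPM. That test was limma's moderated test with Benjamini-Hochberg adjustment over all genes. A second scale divided each library by a median-ratio size factor, which places the median gene near 0.

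Upf1 had the highest level of the 9 genes in every group, with means between 8.57 TPM in 1 month controls and 19.0 TPM in P10 HKO libraries. Smg8 or Smg9 had the lowest, with Smg9 at 1.74 ± 0.0449 TPM in acHKO libraries (SD, n = 3). The summed TPM of the 9 genes was 31.5 to 36.1 in acHKO libraries and 38.6 to 56.6 in GFP libraries. It was 35.2 to 50 in HKO libraries and 40.6 to 44.9 in controls at 1 month, and 76.2 to 79.2 in HKO libraries and 57.2 to 57.3 in controls at P10. The P10 HKO group had the highest mean of the 6 groups for 9 of the 9 genes, and the acHKO group had the lowest mean for 7, the exceptions being Upf1 and Smg1.

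**Figure D1:**
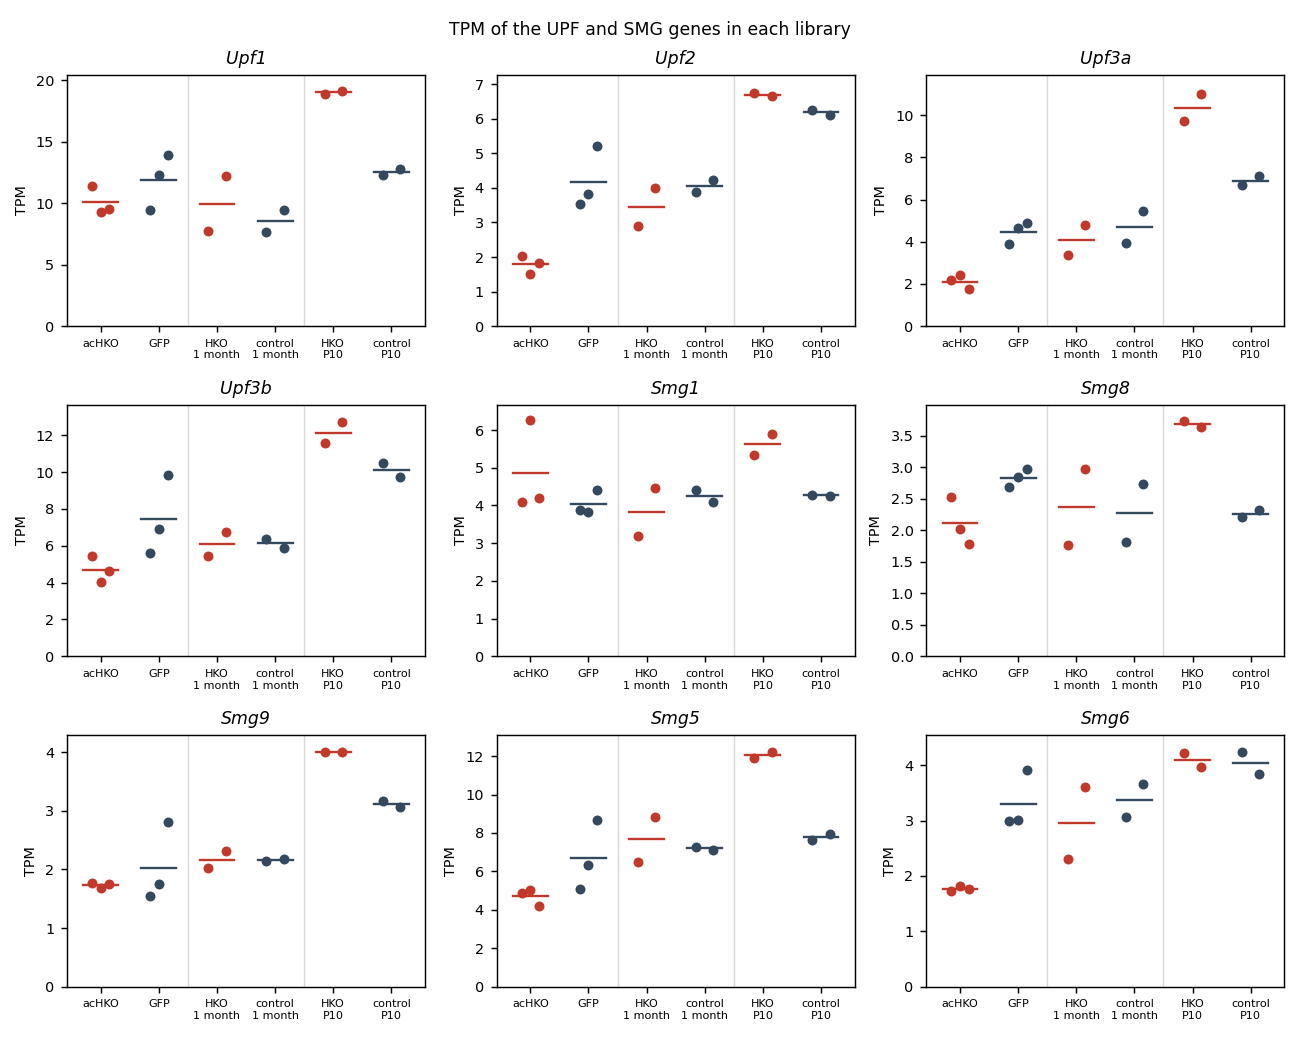
TPM of each UPF and SMG gene (y axis, linear from 0) in every library of the 6 groups (x axis), with points for libraries, lines for group means and red for knockouts. Without overlap, 6 genes lie lower in acHKO than in GFP libraries (47.1% of all genes do) and 8 lie higher in P10 HKO libraries than in P10 controls (62.6% do).

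Among the 3 knockout comparisons members passed the test on deposited TPM in the acute model alone. Upf2, Upf3a and Smg6 fell, 3 of the 9 genes, and 0 rose. Over all genes 34.8% were called lower and 5.93% higher, so 3 of 9 is close to the background. Relative to the median gene the 9 values ran between -0.52 and 0.56, with a median of -0.04. After median-ratio scaling the same 3 genes were lower, against 19.1% of all genes, and Smg1 was higher, against 19.9%. In the authors' deposited table of this comparison Upf2, Upf3a and Smg6 were also called lower and 0 members were called higher, against 16.1% of genes lower and 16.4% higher. Rescaled to the total of nuclear protein-coding genes, the 3 lower calls were lost (adjusted p between 0.252 and 0.674) while Smg1 passed (adjusted p = 0.0496), where 13.2% of genes were called higher and 4.96% lower. The relative values there were -0.64 for Upf2, -0.55 for Upf3a and -0.37 for Smg6, with an SE of at most 0.30.

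In HKO hepatocytes 0 of the 9 genes passed limma's test at 1 month, where 6.86% of all genes did, and 0 had an unadjusted p under 0.05, as 18.8% of all genes did. The 9 values relative to the median gene ran between -0.19 and 0.17. On the median-ratio scale 0 of the 9 passed at either age, against 15.7% of genes at 1 month and 17.0% at P10, with 1 and 3 at an unadjusted p under 0.05, against 32.8% and 33.2% of genes. At P10 0 of the 9 passed adjustment, with 12.7% of all genes called, and 4 had an unadjusted p under 0.05, as 29.7% of all genes did. These 4, Smg5, Upf1, Smg8 and Upf3a, had relative log2 fold changes of 0.32, 0.31, 0.27 and 0.27, each higher in HKO libraries. Summed hepatocyte markers were at 61200 to 77900 TPM in HKO libraries and 109000 to 114000 TPM in controls at P10, the 8 cholangiocyte markers at 135 to 168 TPM in HKO libraries and 58.6 to 71.3 TPM in controls, and the 10 cell cycle genes at 210 to 236 TPM in HKO libraries and 130 to 140 TPM in controls. None of these markers was at 0 in every library of either P10 group, and their part in the P10 values was not tested. In the authors' deposited table Smg8 was called higher at P10, where 13.4% of genes were, and 0 members were called at 1 month, where 13.5% of genes were called in either direction.

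The groups did not overlap at P10 for 8 of the 9 genes, each higher in HKO libraries, but 62.6% of all tested genes did the same on deposited TPM. After median-ratio scaling Upf1, Upf3a, Smg8 and Smg5 were higher without overlap, against 38.2% of genes, and Upf2 and Smg6 were lower, against 33.6%. No gene of the 9 was lower without overlap at P10 on deposited TPM, against 13.4%. In the acute model 6 genes were lower without overlap, against 47.1% of genes, and 0 were higher, against 6.61%, and on the median-ratio scale Upf2, Upf3a and Smg6 were, against 27.3%. On that scale Upf1 and Smg1 were higher without overlap in acHKO libraries, against 27.7% of genes. At 1 month 0 of the 9 genes separated on deposited TPM, against 21.1% of genes higher and 15.6% lower. After median-ratio scaling Upf1 was higher, against 32.6%, and Upf2, Upf3a and Smg6 were lower, against 24.2%.

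**Figure D2:**
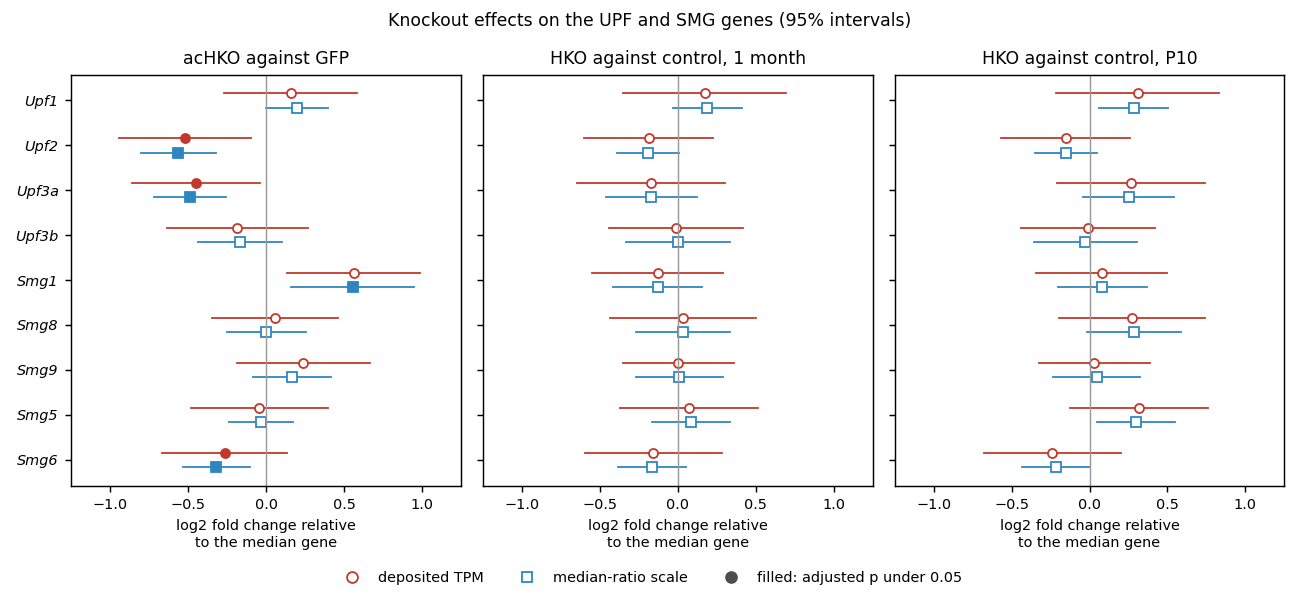
Log2 fold change relative to the median gene (x axis) of each UPF and SMG gene (y axis) in the 3 knockout comparisons, on deposited TPM (circles) and the median-ratio scale (squares), with 95% intervals that take the median as fixed. Filled symbols passed an adjusted p of 0.05, which Upf2, Upf3a and Smg6 did on both scales in the acute model and Smg1 on the median-ratio scale.

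Upf1 encodes the ATP-dependent RNA helicase at the centre of NMD and lies on chromosome 8, from 70331525 to 70353278 on the minus strand of GRCm38. Its level was 11.4, 9.25 and 9.53 TPM in acHKO libraries and 9.42, 12.3 and 13.9 TPM in GFP libraries, and the groups overlapped. The change was 0.16 relative to the median gene, with an adjusted p of 0.424 in limma's test. At 1 month Upf1 had 7.72 and 12.2 TPM in HKO libraries and 7.67 and 9.47 TPM in controls. At P10 it had 18.9 and 19.1 TPM in HKO libraries and 12.3 and 12.8 TPM in controls, a ratio of group means of 1.51. This difference had a relative log2 fold change of 0.31 and missed the threshold, with an adjusted p of 0.144 in limma's test, as it did in the authors' deposited table (adjusted p = 0.0613).

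The annotation gives Upf1 a pair of protein-coding transcripts, and they are shown because they differ by a single alternative splice site inside the coding sequence. Upf1-201 extends exon 7 of 24 at its 3′ end by 33 bases, at chr8:70339982-70340014 on the minus strand of GRCm38, and the extension keeps the reading frame. It also has 67 more bases at its 5′ end. In human cells the longer form is known as the UPF1 isoform with an extended regulatory loop. The letters are from GENCODE M21, 5′ to 3′, and the capitals mark the extension.
Upf1-201: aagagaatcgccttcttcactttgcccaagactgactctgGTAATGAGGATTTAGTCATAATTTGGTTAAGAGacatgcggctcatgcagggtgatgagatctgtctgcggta
Upf1-202: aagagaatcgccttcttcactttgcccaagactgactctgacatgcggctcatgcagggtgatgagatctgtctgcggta
Upf1-201 made up 11.2, 17.6 and 14.6% of Upf1 TPM in acHKO libraries and 22.5, 22.3 and 31.8% in GFP libraries. All acHKO shares lay below all GFP shares. In the test of transcript usage, limma's diffSplice, the share of the long form was 11.8 percentage points lower in acHKO libraries, with an unadjusted p of 0.0299 and an adjusted p of 0.0665, so Upf1 was not called, while 35.7% of tested genes were.

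Tested as a single transcript, Upf1-201 fell to 1.43 TPM on average in acHKO libraries, against 3.09 TPM in GFP libraries, with a relative log2 fold change of -0.36 and an adjusted p of 0.023 in limma's test. This test of single transcripts called 35.0% of 16293 transcripts lower. The call was lost on the median-ratio scale (relative log2 fold change -0.40, adjusted p = 0.0537) and without acHKO replicate 1, acHKO replicate 3 or GFP replicate 3, where adjusted p lay between 0.0524 and 0.0638. Upf1-202 had a relative log2 fold change of 0.33, with an adjusted p of 0.942 on deposited TPM and 0.0363 on the median-ratio scale. In the other groups the long form's share was 20.1 and 20.5% in HKO libraries and 36.6 and 15.1% in controls at 1 month, and 15.3 and 15.9% in HKO libraries and 16.1 and 19.1% in controls at P10. The 1 month controls thus held both the lowest and the highest share of the 8 HKO-model libraries.

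Upf2 encodes the scaffold that joins UPF1 to UPF3 and lies on chromosome 2, from 5951469 to 6056703 on the plus strand. It had 2.04, 1.5 and 1.83 TPM in acHKO libraries and 3.53, 3.81 and 5.21 TPM in GFP libraries. The highest acHKO library was below the lowest GFP library, and the ratio of group means was 0.428. The log2 fold change relative to the median gene was -0.52 (SE 0.20), with an adjusted p of 0.00277 in limma's test. It stayed past the threshold with each of the 6 libraries left out in turn (adjusted p between 0.00277 and 0.0132). In the authors' deposited table its log2 fold change was -0.91 with an adjusted p of 1.015e-06.

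At 1 month Upf2 had 2.91 and 4.01 TPM in HKO libraries and 3.87 and 4.23 TPM in controls, which overlapped. At P10 it had 6.74 and 6.66 TPM in HKO libraries and 6.27 and 6.11 TPM in controls. Relative to the median gene these differences were -0.19 and -0.15, with adjusted p of 0.677 and 0.746 in limma's test. The full-length transcript Upf2-201 fell in the acute model, with a relative log2 fold change of -0.66 and an adjusted p of 0.0025, and held 67.7, 60.2 and 74.5% of Upf2 TPM in acHKO libraries and 81.3, 83.8 and 84.0% in GFP libraries.

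Upf3a encodes an exon junction complex binding protein with weak or antagonistic activity in mammalian NMD, and lies on chromosome 8, from 13785615 to 13799193 on the plus strand. It had 2.19, 2.41 and 1.74 TPM in acHKO libraries and 3.89, 4.64 and 4.90 TPM in GFP libraries, with no overlap and a ratio of group means of 0.472. The relative log2 fold change was -0.45 (SE 0.19) with an adjusted p of 0.00386 in limma's test. The call held with each library left out in turn (adjusted p between 0.00289 and 0.0287). The authors' deposited table gave a log2 fold change of -0.79 with an adjusted p of 0.000301.

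At 1 month Upf3a had 3.35 and 4.77 TPM in HKO libraries and 3.95 and 5.46 TPM in controls. At P10 the order was the other way, with 9.71 and 11 TPM in HKO libraries and 6.67 and 7.13 TPM in controls. That P10 difference was 0.27 relative to the median gene, with an adjusted p of 0.138 in limma's test. Transcripts annotated as retained introns held 4.47 to 7.82% of Upf3a TPM in acHKO libraries and 4.84 to 5.46% in GFP libraries.

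Upf3b, the X-linked paralog that carries most UPF3 activity, lies on chromosome X, from 37091678 to 37110322 on the minus strand. It had 5.44, 4.03 and 4.63 TPM in acHKO libraries and 5.61, 6.94 and 9.83 TPM in GFP libraries. The groups did not overlap on deposited TPM. The relative log2 fold change was -0.18, with a 95% interval of -0.64 to 0.27 that takes the median as fixed. The adjusted p of 0.051 in limma's test, just outside the threshold, belongs to the unshifted change of -0.55, where the median gene was at -0.36. On the median-ratio scale the groups overlapped and limma's adjusted p was 0.280, and in the authors' deposited table the adjusted p was 0.106. At 1 month it had 5.46 and 6.75 TPM in HKO libraries and 6.39 and 5.89 TPM in controls, and at P10 11.6 and 12.7 TPM in HKO libraries and 10.5 and 9.72 TPM in controls. HKO replicate 2 at P10 was the only library with more than a trace of Xist RNA, at 74.7 TPM against at most 0.0147 TPM in the other 13, and it had the highest Upf3b level of all 14. Its Y-linked genes summed to 0.144 TPM, against at least 24.9 TPM in every other library, so it is the only female one by these genes. The part of sex in the Upf3b values was not tested.

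Smg1 encodes the PI3K-related kinase that phosphorylates UPF1 and lies on chromosome 7, from 118131308 to 118243670 on the minus strand. It was the 1 member with a higher mean in acHKO than in GFP libraries, with 4.09, 6.26 and 4.21 TPM in acHKO libraries and 3.87, 3.83 and 4.4 TPM in GFP libraries. The groups overlapped on deposited TPM, where the relative log2 fold change was 0.56 and the adjusted p was 0.441 in limma's test of the unshifted change. With median-ratio scaling the same difference, 0.55 relative to the median gene, passed with an adjusted p of 0.0362. The authors' deposited table gave a log2 fold change of 0.56 with an adjusted p of 0.051.

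The size of the Smg1 difference leaned on acHKO replicate 2. Without it the median-ratio value was 0.39 with an adjusted p of 0.0499, and without any of acHKO replicate 3 or the GFP replicates the call was lost (adjusted p between 0.0584 and 0.1). In that library Smg1-207, a transcript of 447 bases near the gene's 3′ end, held 23.5% of Smg1 TPM, against 8.19 and 9.99% in the other acHKO libraries and 3.21 to 5.46% in GFP libraries. Its share was 23.8 to 26.7% in HKO libraries and 14 to 18.5% in controls at 1 month. The full-length Smg1-201 had 3.18, 4.07 and 3.38 TPM in acHKO libraries and 3.37, 3.10 and 3.70 TPM in GFP libraries, and its adjusted p on the median-ratio scale was 0.0553. At 1 month Smg1 had 3.19 and 4.46 TPM in HKO libraries and 4.4 and 4.09 TPM in controls, and at P10 5.35 and 5.90 TPM in HKO libraries and 4.29 and 4.24 TPM in controls.

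Smg8 and Smg9 encode the subunits that bind SMG1 and restrain its kinase activity. Smg8 lies on chromosome 11, from 87077732 to 87086774 on the minus strand, and had 2.53, 2.02 and 1.78 TPM in acHKO libraries and 2.68, 2.84 and 2.97 TPM in GFP libraries. The groups did not overlap, but relative to the median gene the difference was 0.06, with an adjusted p of 0.206 in limma's test. At P10 Smg8 had 3.74 and 3.64 TPM in HKO libraries and 2.21 and 2.32 TPM in controls, the largest ratio of group means among the members there, 1.63. The relative log2 fold change was 0.27 with an adjusted p of 0.129 in limma's test, and in the authors' deposited table the log2 fold change of 0.39 had an adjusted p of 0.0434. At 1 month it had 1.77 and 2.98 TPM in HKO libraries and 1.81 and 2.74 TPM in controls.

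Smg9, on chromosome 7 from 24399619 to 24422778 on the plus strand, had 1.77, 1.69 and 1.76 TPM in acHKO libraries and 1.54, 1.75 and 2.81 TPM in GFP libraries. The acHKO libraries lay within the range of the GFP libraries. It had 2.02 and 2.32 TPM in HKO libraries and 2.15 and 2.18 TPM in controls at 1 month, and 4 and 4.01 TPM in HKO libraries and 3.17 and 3.06 TPM in controls at P10. Its relative log2 fold changes were 0.24, 0.004 and 0.03 in the acute, 1 month and P10 comparisons, and adjusted p in limma's test was at least 0.261.

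Smg5 encodes an adaptor that binds phosphorylated UPF1 and promotes its dephosphorylation and decay of the target, and lies on chromosome 3, from 88336260 to 88362338 on the plus strand. It had 4.87, 5.04 and 4.22 TPM in acHKO libraries and 5.07, 6.33 and 8.66 TPM in GFP libraries. The highest acHKO library lay just under the lowest GFP library, and the relative log2 fold change was -0.04 with an adjusted p of 0.126 in limma's test. At 1 month it had 6.51 and 8.82 TPM in HKO libraries and 7.26 and 7.12 TPM in controls. At P10 it had 11.9 and 12.2 TPM in HKO libraries and 7.65 and 7.94 TPM in controls, a ratio of group means of 1.55 and a relative log2 fold change of 0.32, with an adjusted p of 0.0882 in limma's test and of 0.0531 in the authors' deposited table.

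The full-length transcript Smg5-201 fell in the acute model although the gene did not pass. It had 2.47, 2.14 and 2.21 TPM in acHKO libraries and 3.74, 4.22 and 6.2 TPM in GFP libraries, with a relative log2 fold change of -0.43 and an adjusted p of 0.0101 in limma's test of single transcripts. That call held with each library left out and on the median-ratio scale (adjusted p between 0.0077 and 0.0294 over all alternatives). Its share of Smg5 TPM was 50.7, 42.5 and 52.4% in acHKO libraries and 73.8, 66.6 and 71.6% in GFP libraries. The 5 transcripts of the gene annotated as retained introns together held 36.3 to 41.2% in acHKO libraries and 21.1 to 26.2% in GFP libraries. In acHKO libraries Smg5-208, Smg5-204 and Smg5-206 averaged 16.7, 7.53 and 7.09% of Smg5 TPM. In GFP libraries they averaged 6.55, 3.76 and 5.76%. They start 93.1, 84.1 and 62.2% into the gene. Smg5-203 starts 0.2% into it and averaged 7.22% in acHKO and 7.08% in GFP libraries, while Smg5-209 was at 0 in both groups. Smg5-207, annotated as a processed transcript and not as a retained intron, averaged 9.3% in acHKO and 1.03% in GFP libraries. It starts 84.7% into the gene, so the higher shares were not limited to transcripts annotated as retained introns. Whether introns were retained was not tested.

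Smg6 encodes the endonuclease that cleaves NMD targets near the stop codon, and lies on chromosome 11, from 74925823 to 75164448 on the plus strand. It had 1.72, 1.82 and 1.77 TPM in acHKO libraries and 2.99, 3.01 and 3.92 TPM in GFP libraries, with no overlap and a ratio of group means of 0.536. The relative log2 fold change was -0.27 (SE 0.19) with an adjusted p of 0.0157 in limma's test. The call was lost without any single acHKO library, where adjusted p lay between 0.0509 and 0.063, and the relative value then ran between -0.30 and -0.21. In the authors' deposited table the log2 fold change was -0.60 with an adjusted p of 0.00103. At 1 month Smg6 had 2.31 and 3.61 TPM in HKO libraries and 3.07 and 3.67 TPM in controls, and at P10 4.22 and 3.98 TPM in HKO libraries and 4.25 and 3.85 TPM in controls.

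Smg6 also has an annotated NMD transcript, Smg6-202, which lacks a cassette exon and was noticed after its values were seen. It also starts within exon 2 of Smg6-201 and has 4078 bases against 5848, so its share is not a measure of exon skipping alone. The exon is number 9 of the 19 in Smg6-201, at chr11:74981852-74981913 on the plus strand of GRCm38, and its 62 bases are not a multiple of the codon length. The letters are from GENCODE M21, 5′ to 3′, and the capitals mark the exon that is skipped.
Smg6-201: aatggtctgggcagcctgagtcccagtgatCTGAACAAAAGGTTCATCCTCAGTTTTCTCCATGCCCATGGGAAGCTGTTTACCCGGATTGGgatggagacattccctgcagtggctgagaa
Smg6-202: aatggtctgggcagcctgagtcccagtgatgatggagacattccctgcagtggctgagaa
Smg6-202 held 14.9, 22.6 and 8.70% of Smg6 TPM in acHKO libraries and 1.15, 1.06 and 2.02% in GFP libraries, without overlap. It held 20.8 and 18.4% in HKO libraries and 23.7 and 13.2% in controls at 1 month, which overlapped, and 3.86 and 21.6% in HKO libraries and 3.79 and 2.44% in controls at P10. The 21.6% is from HKO replicate 2 at P10, the only library with more than a trace of Xist RNA. The level of Smg6-202 was at most 0.861 TPM in any library, below the minimum for the test, so these shares are a description. The coding transcript Smg6-201 fell in the acute model, with 1.28 to 1.34 TPM in acHKO libraries, against 2.79 to 3.68 TPM in GFP libraries, with a relative log2 fold change of -0.47 and an adjusted p of 0.00409 in limma's test of single transcripts.

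A short Smg8 transcript showed the same order. Smg8-202 was also noticed after its values were seen. It has 1163 bases against 3218 for Smg8-201, starts 15.4% into the gene and lacks 659 bases through an alternative 5′ splice site, so the 659 bases are only part of the difference. It held 11.7, 11 and 16.6% of Smg8 TPM in acHKO libraries and 2.70, 0.793 and 1.02% in GFP libraries. Its level was 0.223 to 0.296 TPM in acHKO libraries and 0.0225 to 0.0723 TPM in GFP libraries. These levels are below the minimum for the test, so its shares are a description. In the HKO model its share was 9.30 and 2.60% in HKO libraries and 0.0 and 2.26% in controls at 1 month, and 1.16 and 3.38% in HKO libraries and 2.03 and 0.0% in controls at P10. Over all 9 genes, transcripts annotated as NMD substrates held 0.726 to 1.49% of their TPM in acHKO libraries and 0.374 to 0.550% in GFP libraries. There are 3 of these transcripts, in Smg1, Smg5 and Smg6. The Smg1 transcript was at 0 in acHKO libraries and at most 0.22% of Smg1 TPM in GFP libraries. The Smg5 transcript held 1.77 to 1.92% of Smg5 TPM in acHKO libraries and 2.0 to 2.74% in GFP libraries. The higher share in acHKO libraries is thus that of Smg6-202 and not a separate result. Over all genes, transcripts annotated as NMD substrates held 0.427 to 0.468% of total TPM in acHKO libraries and 0.507 to 0.645% in GFP libraries. That total includes mitochondrially encoded transcripts, at 33.5 to 42.9% in acHKO and 11.8 to 16.1% in GFP libraries. The members' share is of their own TPM, so the orders of these shares cannot be set against each other. In the HKO model the members' share was 1.53 to 1.83% in HKO libraries and 1.52 to 1.95% in controls at 1 month, and 0.454 to 1.47% in HKO libraries and 0.438 to 0.545% in controls at P10, and both pairs overlapped. Transcripts annotated as retained introns held 6.2 to 8.84% in acHKO libraries and 3.88 to 5.02% in GFP libraries. Over all genes the retained-intron share of total TPM, which has the same limit, overlapped between acHKO libraries (1.2 to 1.45%) and GFP libraries (0.950 to 1.47%). For the members it was 7.27 to 9.57% in HKO libraries and 4.5 to 9.08% in controls at 1 month, which overlapped, and 5.68 to 6.51% in HKO libraries and 5.02 to 5.03% in controls at P10, which did not.

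A measure over 3010 genes also differed between acHKO and GFP libraries. It is the mean share of a gene's TPM in transcripts that start past the middle of its longest coding transcript. It was 14.9, 17.0 and 16.4% in acHKO libraries and 10.4, 11.2 and 11.1% in GFP libraries. At 1 month it was 18.8 and 14.9% in HKO libraries and 18.9 and 14.3% in controls, and at P10 13.8 and 16.8% in HKO libraries and 14.2 and 14.3% in controls. HKO replicate 2 at P10, in which Smg6-202 was high, was also the higher P10 library in this measure, and 1 month control replicate 1, in which Upf1-201 was high, had the highest value of all 14, while Smg8-202 was listed at 0 there. Its part in the transcript results was not tested.

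**Figure D3:**
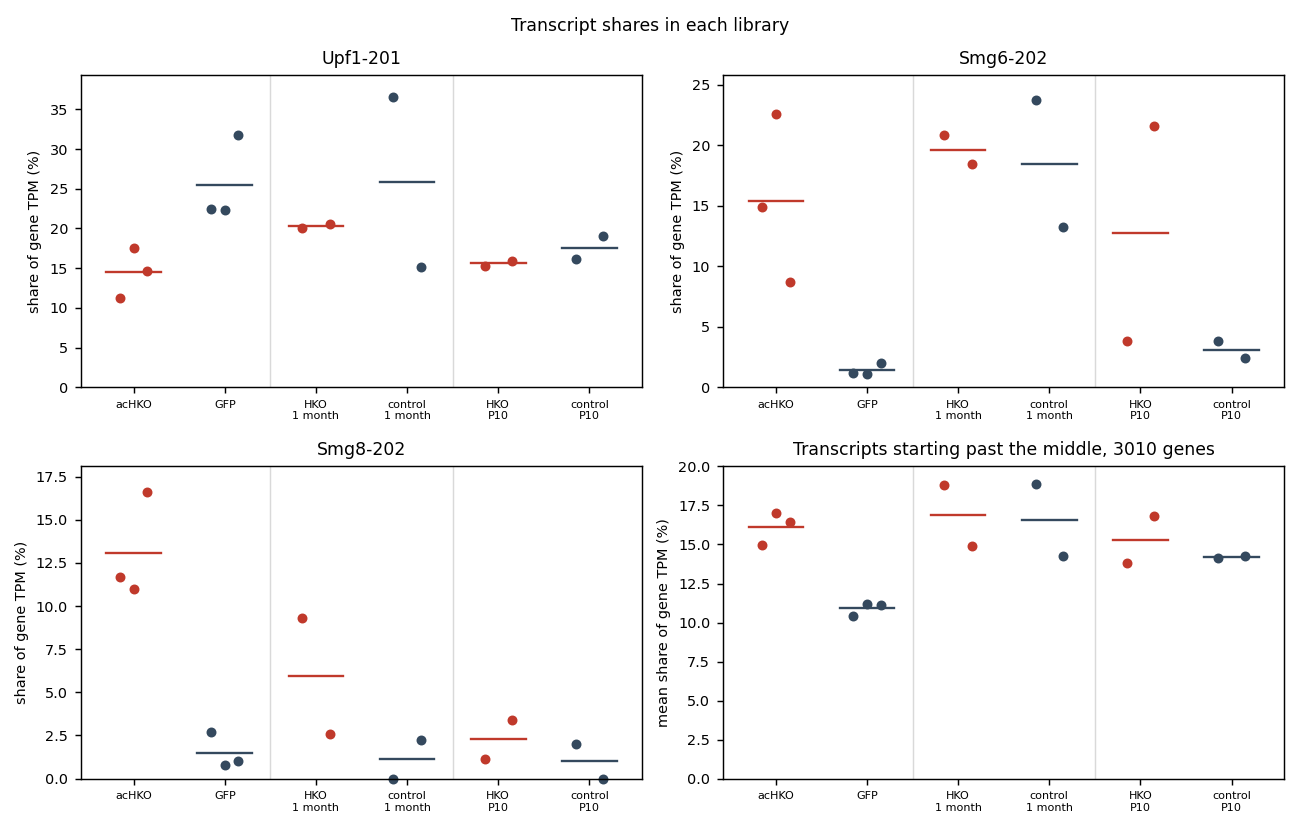
Share of gene TPM (y axes, percent, from 0) held by Upf1-201, Smg6-202 and Smg8-202, and the mean share held by transcripts that start past the middle of the gene's longest coding transcript (3010 genes), in every library of the 6 groups (x axes), with points for libraries and lines for group means. The acHKO libraries lie below the GFP libraries for Upf1-201 and above them in the other 3 panels.

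In transcript usage 0 members were called in the 3 knockout comparisons by limma's diffSplice. Upf1, Upf2, Upf3b and Smg5 had transcripts enough to be tested in the HKO model, where 0.235% of genes were called at 1 month and 0.586% at P10, and Upf1 and Upf3b in the acute model. Unadjusted p was under 0.05 for Upf1 in the acute model and for 0 members elsewhere. With a lower minimum of 0.5 TPM, Smg5 and Upf2 were called in the acute model (adjusted p of 0.00147 and 0.00731), where 32.9% of genes were. Of 11 single transcripts of members tested in the acute model 6 fell, against 35.0% of all transcripts, and 0 rose, and of 13 tested in the HKO model 0 passed at either age, against 2.94% of all transcripts at 1 month and 6.04% at P10.

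Levels of members also differed with age in controls. Upf3b was at 6.14 ± 0.353 TPM at 1 month and 10.1 ± 0.575 TPM at P10 (SD, n = 2 each), and Upf2 was at 4.05 ± 0.252 TPM at 1 month and 6.19 ± 0.109 TPM at P10. These 2 were called lower at 1 month, with adjusted p of 0.0212 and 0.0471 in limma's test, where 38.2% of all genes were called lower and the median gene was at -0.43. Relative to that median they were at -0.21 and -0.08, and on the median-ratio scale 0 of the 9 passed, with 2 at an unadjusted p under 0.05 (54.4% of genes) and 47.1% of genes called. The differences between knockout effects were also tested. For 1 month against P10, 0 members passed limma's test, 1 had an unadjusted p under 0.05 (16.4% of genes) and 2.80% of genes were called. For the acute against the 1 month effect, 0 passed, 2 had an unadjusted p under 0.05 (25.2% of genes) and 6.83% were called, and on the median-ratio scale Upf2 passed with a difference of -0.40 (adjusted p = 0.0409), where 17.0% of genes did. For the acute against the P10 effect, 5 of the 9 passed on deposited TPM, where 33.9% of genes did, and 2 on the median-ratio scale, where 22.5% did.

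Across the 14 libraries the 9 genes followed each other to different degrees. Pearson's r of log2(TPM + 1) between pairs of members ran between 0.11 for Smg1 and Upf2 and 0.96 for Smg6 and Upf2, with a median of 0.75. The libraries share groups and composition, so these values describe the table only. Among 5966 protein-coding genes averaging 5 TPM or more, the profiles closest to Upf1 were those of Washc4 (r = 0.99) and Mapk1ip1l (0.99), and those closest to Upf3a were Matr3 (0.99) and Serbp1 (0.99). Cct4 and Rab11a were closest to Upf2 (each 0.98), Ogt and Ly96 to Upf3b (each 0.98), Dnaja2 (0.97) and Nckap1 (0.95) to Smg8, and Commd2 and March7 to Smg9 (each 0.98). Utp14a and Rnf111 were closest to Smg5 (each 0.97) and Hp1bp3 and Bad to Smg6 (each 0.99). Smg1 had the weakest matches, Slc25a33 and Midn (each 0.85).

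Genes around the 9 members were counted in 5 lists. The exon junction complex list holds the proteins that mark spliced junctions, and 3 of its 9 genes were lower in acHKO libraries while 0 were higher, against 34.8% of all genes lower and 5.93% higher. Eif4a3, the clamp of the complex, averaged 9.02 ± 0.717 TPM in acHKO libraries and 15.1 ± 3.11 TPM in GFP libraries (SD, n = 3 each, relative log2 fold change -0.30, adjusted p = 0.0157 in limma's test). Rnps1 was at -0.26 and Casc3 at -0.15 on the same relative scale. The median of the 9 was -0.06, close to the median of all genes, and on the median-ratio scale Eif4a3 was lower and Magohb higher. In the HKO model 0 of the 9 passed limma's test on deposited TPM, against 6.86% of all genes at 1 month and 12.7% at P10. On the median-ratio scale Sap18 was lower at P10 (adjusted p = 0.0218), where 7.99% of genes were.

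Among 11 tested genes for translation termination and further NMD cofactors, 6 fell in the acute model, against 34.8% of all genes, and 0 rose, with a list median of -0.23. The 3 with the smallest p were Gspt1 and Etf1, the release factors eRF3 and eRF1, and Eif4g1, a cap-binding scaffold. Gspt1 averaged 21.1 ± 3.06 TPM in acHKO libraries and 34.3 ± 5.66 TPM in GFP libraries, Etf1 14.1 ± 0.960 TPM in acHKO and 23.1 ± 4.33 TPM in GFP libraries, and Eif4g1 60.6 ± 5.08 TPM in acHKO and 95.9 ± 14.3 TPM in GFP libraries (SD, n = 3 each). Their relative log2 fold changes were -0.31, -0.29 and -0.28. On the median-ratio scale 1 gene, Etf1, was lower, so 5 of the 6 calls were lost there. In the HKO model 0 of 12 passed limma's test, against 6.86% of all genes at 1 month and 12.7% at P10. The list medians were -0.02 at 1 month and 0.20 at P10. Median-ratio scaling called 1 gene higher at each age, Ncbp2 at 1 month (adjusted p = 0.0258) and Pabpc1 at P10 (adjusted p = 0.029), where 9.69% and 9.01% of genes were.

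The decapping and exonuclease list, which holds the enzymes that finish decay, had 37 tested genes in the acute model, of which 10 fell, against 34.8% of all genes, and 1 rose, against 5.93%. After median-ratio scaling 7 were lower, against 19.1%, and 6 higher, against 19.9%. Lsm6, a subunit of the ring that activates decapping, averaged 8.64 ± 1.37 TPM in acHKO libraries and 33.6 ± 5.71 TPM in GFP libraries (SD, n = 3 each), with a relative log2 fold change of -1.48 and an adjusted p of 4.421e-06 in limma's test. Its relative value was -0.78 in HKO hepatocytes at 1 month (adjusted p = 0.0905) and -0.74 at P10 (adjusted p = 0.207), and on the median-ratio scale it passed in both. The deadenylase subunit Cnot6 (-0.60) and the helicase Ddx6 (-0.51) came next in the acute model. Pan3, which recruits the PAN2 deadenylase, rose, at 6.60 ± 0.450 TPM in acHKO libraries and 4.05 ± 0.476 TPM in GFP libraries, with a relative log2 fold change of 0.96. At P10 Exosc1, an exosome subunit, was the 1 gene of 38 called, where 12.7% of all genes were. It had 6.76 ± 0.0707 TPM in HKO libraries and 3.66 ± 0.132 TPM in controls (SD, n = 2 each).

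Transcripts described as NMD targets in mammalian cells are a list of 16 genes that many other pathways also regulate, among them stress genes and snoRNA hosts. At P10 8 of 15 tested rose and 0 fell, with a list median of 0.68, where 10.8% of all genes were called higher. The list was chosen with earlier results of these data known, so its counts are a description and not a test of NMD targets. After median-ratio scaling 7 were higher and 1 lower, Nat9 (adjusted p = 0.00581), against 9.01% of genes higher and 7.99% lower. Trib3, a pseudokinase of the stress response, averaged 17.8 ± 7.05 TPM in HKO libraries and 0.585 ± 0.0712 TPM in controls, the transcription factor Atf3 26.8 ± 8.25 TPM in HKO libraries and 4.07 ± 0.434 TPM in controls, and the snoRNA host Snhg15 12.2 ± 2.99 TPM in HKO libraries and 2.97 ± 0.413 TPM in controls (SD, n = 2 each). Their relative log2 fold changes were 3.27, 2.17 and 1.47. At 1 month 3 of 15 rose, the same Snhg15 (1.37), Atf3 (1.2) and Trib3 (1.10), where 4.87% of all genes were called higher. At that age cholangiocyte markers summed to between 21 and 35.3 TPM in HKO libraries and between 1.67 and 1.97 TPM in controls, with Cldn4 and Cldn7 at 0 in the controls. Cell cycle genes summed to between 36.0 and 44.5 TPM in HKO libraries and between 1.82 and 4.24 TPM in controls. Endothelial markers summed to 11.6 to 37.3 TPM in HKO libraries and 8.93 to 11.5 TPM in controls, and stellate cell and fibroblast markers to 12.1 to 30.8 and 5.28 to 5.68 TPM. Erythroid, neutrophil and lymphocyte markers overlapped. The part of any of these in the values was not tested.

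In the acute model the list split, with 3 of 13 higher, against 5.93% of all genes, 3 lower, against 34.8%, and a list median of -0.02. Gadd45b (2.42), Trib3 (1.55) and Cdkn1a (2.65), stress and cell cycle arrest genes, rose relative to the median gene. Ddit3 (-0.47), Gadd45a (-0.52) and Tbl2 (-0.34) fell. Gadd45b varied widely among acHKO libraries, at 8.01 ± 6.63 TPM in acHKO libraries and 0.836 ± 0.449 TPM in GFP libraries (SD, n = 3 each). Of the PI3K-related kinases and the TTT chaperone that assembles them with SMG1, 1 of 6 tested, the chaperone subunit Tti1, fell in the acute model (-0.35), where 34.8% of all genes did. On the median-ratio scale 1 was higher and 1 lower there, against 19.9% and 19.1% of genes. In the HKO model 0 of 7 passed limma's test, against 6.86% of genes at 1 month and 12.7% at P10. After median-ratio scaling 2 were higher at 1 month, against 9.69% of genes, and 0 passed at P10, against 17.0%.

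**Figure D4:**
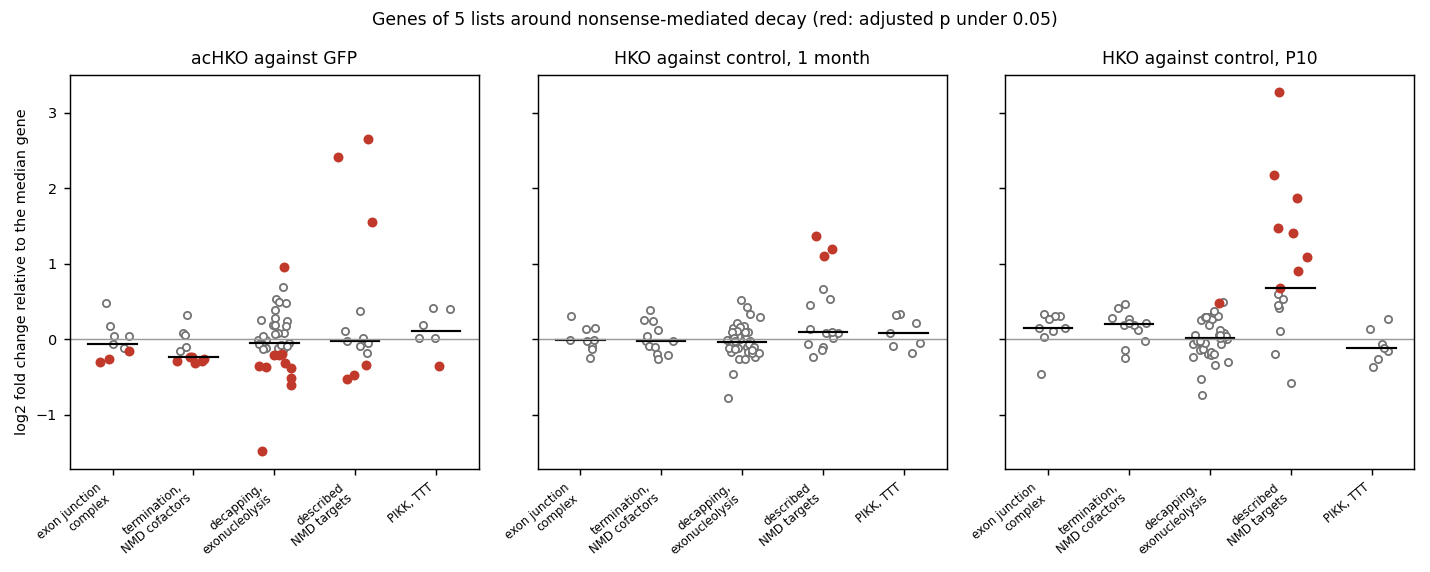
Log2 fold change relative to the median gene (y axis) of the tested genes of 5 lists (x axis) in the 3 knockout comparisons, with filled red points for an adjusted p under 0.05 and black lines for list medians. The described NMD targets have 8 red points above 0 at P10 and 3 on each side of 0 in the acute model.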

How the data were processed

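RNA from 14 libraries of purified mouse hepatocytes was analysed from deposited tables. Per the labels' protocols, libraries were made with the TruSeq Stranded mRNA kit. Per the submitters' processing notes, bcl2fastq 2.17.1.14, kallisto 0.46.0 and DESeq2 (no version given) were used with GRCm38 (mm10). The authors deposited transcript TPM for all libraries. Per the file headers, their gene tables hold a mean normalized count, which is a signal averaged over libraries, a log2 fold change and standard error, a test score, and raw and adjusted p-values. The step between transcript estimates and their gene counts is not stated in those notes. TPM keep no read depth, so depth is unknown, no count model was fitted, and the number of libraries limits the precision.

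The 9 members and all gene lists were chosen with earlier results of these data known. Gene TPM were sums over transcripts, and 53229 of 54446 gene identifiers matched GENCODE M21. Genes averaging 1 TPM or more over the libraries fitted were tested on log2(TPM + 1) with limma 3.58.1 in R 4.3.3 (two-sided, lmFit and eBayes with a trend on mean level), and p-values were adjusted over the whole table and called at 0.05. The HKO model used 1 fit of 8 libraries, the acute model 1 of 6, and differences between models 1 of 14. A fold change on the log2(TPM + 1) scale understates the change of low genes. Transcript usage was tested with diffSplice on transcripts of at least 1 TPM and 5% of their gene, and called at an adjusted p of 0.05 and a shift of 10 percentage points. Single transcripts, and the difference between acute and P10 effects, were tested after the data were seen. Genes named were all members and Srsf1, up to 3 called genes per list with the smallest p, any called against their list's majority, and the 2 closest profiles per member. The procedures were tested on simulated data. Replicate numbers were not treated as pairs.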

Additional observations from a re-analysis of the deposited data

Results flagged for a closer look

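The acute and P10 knockout effects differed for 5 of the 9 genes in a test of the difference itself, limma over 14 libraries, where 33.9% of all genes were called. Acute minus P10, the relative log2 difference was -0.76 for Upf3a, -0.41 for Upf2, -0.40 for Smg5, -0.25 for Smg8 and -0.21 for Upf3b. The test was of the unshifted differences, at -1.33 (adjusted p = 0.00414), -0.98 (0.0126), -0.98 (0.0201), -0.83 (0.0279) and -0.79 (0.0498) in that order. The median gene was at -0.58 there. Relative to that median, taken as fixed, the confidence interval excluded 0 for Upf3a (-1.33 to -0.19). It included 0 for Upf2 (-0.95 to 0.14), Smg5 (-1.01 to 0.20), Smg8 (-0.81 to 0.30) and Upf3b (-0.84 to 0.41). On the median-ratio scale, where 22.5% of all genes were called, Upf3a (-0.76, adjusted p = 0.00719) and Upf2 (-0.45, adjusted p = 0.0315) passed, and the other 3 did not. Upf3a passed under each of its 36 alternatives (adjusted p between 0.00234 and 0.0382). The 2 models differ in age, vector, control genotype and library set, and these cannot be told apart.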

How the results depend on the processing

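On the scale of nuclear protein-coding genes, the number of members called was 5 instead of 0 at P10, 2 instead of 0 at 1 month, 1 (Smg1, higher) instead of 3 in the acute model, 5 instead of 2 between control ages and 1 (Upf3a) instead of 5 between acute and P10 effects. All genes were called there at 39.5%, 35.3%, 18.2%, 60.7% and 8.39%, in that order of comparisons. On the median-ratio scale it was 0 between control ages, 1 between acute and 1 month effects and 2 between acute and P10 effects. There 47.1%, 17.0% and 22.5% of all genes were called. With a minimum of 5 TPM, 1 of 3 members left was called in the acute model, 1 of 5 between control ages and 3 of 4 between acute and P10 effects. Of all genes 47.6%, 38.5% and 37.1% were called there, in that order. Between control ages 1 was called with a pseudocount of 0.1, with no filter and in a single fit over 14 libraries, against 43.2%, 21.3% and 41.5% of all genes. With 0.5 TPM as the transcript minimum, 2 members were called in acute usage, where 32.9% of genes were.

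A replicate block called 4 members at P10, with 25.0% of all genes, and 4 between control ages, with 59.2%. In the HKO model same-numbered libraries correlated at 0.007 at P10 and 0.283 at 1 month. With 2 libraries in each group, an age gives only a single value and its sign flip. These correlations therefore cannot decide whether replicates were paired. No pairing was assumed in the main fits, and whether it exists was not tested. In the acute model acHKO replicate 1 did not correlate best with its own number.

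Leaving out 1 library gave 0 to 3 members at P10 (3 without HKO 1 month replicate 1, 2 without replicate 2), 0 at 1 month and 0 to 5 between control ages, while 4.81 to 27.3%, 5.16 to 11.4% and 26.2 to 57.6% of all genes were called. It gave 2 to 5 in the acute model (5 without GFP replicate 1), 0 to 1 between 1 month and P10 effects (1 without HKO 1 month replicate 2), 0 to 2 between acute and 1 month effects (2 without HKO 1 month replicate 1) and 0 to 1 in acute usage (1 without GFP replicate 1). Over those fits 28.2 to 51.7% of all genes were called in the acute model, 1.74 to 14.3% between 1 month and P10 effects and 3.25 to 18.9% between acute and 1 month effects. Between acute and P10 effects it gave 1 to 7, with 11.3 to 47.2% of all genes, and 1 or 2 without any single P10 library and 3 without acHKO replicate 3 or GFP replicate 2.

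Signs near 0 turned for members that were not called either way. With no filter, the acute relative values were -0.20 for Upf1, -0.30 for Smg8 and -0.12 for Smg9. Smg8 ran between -0.0354 and 0.1346 with 1 library left out, and on the median-ratio scale was -0.0599 without acHKO replicate 1, -0.0015 without GFP replicate 2 and -0.0737 without GFP replicate 3. Smg5 ran between -0.0935 and 0.0159 with 1 library left out, and was 0.0231 with a minimum of 5 TPM and 0.0212 on the median-ratio scale without GFP replicate 3. The cause of these changes was not tested. Without read depth, counting error cannot be given for members near 2 TPM.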
